A study of Rattus norvegicus with 8 samples.

Results

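The mitochondrial respiratory chain was followed here through its nuclear-encoded subunits in fetal rat testes exposed to mono-(2-ethylhexyl) phthalate (MEHP), the active metabolite of the plasticizer DEHP. All array probes were taken whose gene name began with Nduf (complex I), Sdha to Sdhd (complex II), Uqcr (complex III), Cox4 to Cox8 (complex IV) or Atp5 (complex V), or was Cycs (cytochrome c). They numbered 84 of the 41012 probes, under 72 gene names. Complex I was represented by 36 probes, complex II by 4, complex III by 7, cytochrome c by 3, complex IV by 19 and complex V by 15. The name rule also took 4 genes that are not subunits, namely Ndufaf1, an assembly factor of complex I, Cox7a2l, which acts in the joining of complexes, Atp5s, now Dmac2l, and Cox4nb, now Emc8, a neighbour of Cox4i1 in the genome. No probe carried the name of a mitochondrially encoded subunit, and Cox7a1 was not among the array's names. Many of these genes have processed pseudogenes or close copies, so that a probe may also have bound related transcripts.

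Testes of Sprague-Dawley fetuses were explanted at the start of the third week of gestation and cultured for 72 h with MEHP or with the DMSO vehicle alone. RNA came from 1 whole testis at 1 µM MEHP and from 3 whole testes at 10 µM, which the methods place in different litters. Each testis was hybridized on 2 two-colour Agilent rat arrays, 8 arrays in all, against a single pool of RNA from 3 DMSO-treated testes. Because the control is 1 pool, the spread between control testes is left out of every test below.

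The respiratory chain passes electrons from NADH through complex I, or from succinate through complex II, to ubiquinone, then through complex III and cytochrome c to complex IV, which reduces oxygen. Complexes I, III and IV pump protons across the inner membrane, and ATP synthase, complex V, makes ATP as the protons return. Mitochondria of the testis also hold the first step of steroid synthesis in Leydig cells.

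Values are log2 ratios of the MEHP testis over the vehicle pool, averaged over the 2 arrays of a testis. Their direction is likely, not settled. The labels place MEHP on Cy3 on every array, whereas the methods describe an exchange of dyes within each pair, so the first hybridization was read as labelled and the repeat in the opposite sense. Read so, the 2 arrays of a testis correlated with r between 0.50 and 0.82 across 3665 probes detected on all 8 arrays. Over all probes r was −0.27 at 1 µM and −0.03, 0.55 and 0.09 in testes 1, 2 and 3 at 10 µM. Over 71 or 72 respiratory chain probes r was 0.26 at 1 µM and 0.55, 0.13 and 0.82 at 10 µM. Arrays of different testes read in the same orientation correlated with r between 0.04 and 0.61 over all probes. Insl3, the Leydig cell hormone, had ratios of −1.53, −2.23 and −1.58 in the 3 testes at 10 µM, and its vehicle signal was well above background on all 8 arrays. Cyp17a1, Cyp11a1 and Hsd3b1 were also below the pool in all 3, whereas Star and Scarb1 were at 1.27 and 1.46 in testis 1. At 1 µM Insl3 and Cyp17a1 were at −1.81 and −1.10, and Star, Scarb1, Cyp11a1 and Hsd3b1 between 0.55 and 1.83. At 10 µM a probe entered the test if 3 or more of the 6 arrays had a signal well above background in either dye, which 72 of the 84 probes and 65 of the 72 gene names met. A probe could thus enter through the vehicle channel alone, as Atp5s did, with 0 arrays above background in MEHP and 3 in vehicle. The other 12 probes were read on at most 2 of the 6 arrays in either channel, among them the sole probes of Ndufs1, Ndufs4 and Uqcrc1.

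Detection differed between the testes. Between 62 and 75 of the 84 respiratory chain probes were well above background in the vehicle channel on every array. In the MEHP channel the number was between 46 and 76 on 6 of the arrays, but 0 and 12 on the 2 arrays of testis 2 at 10 µM. On those 2 arrays only 0.241% and 1.54% of all probes were above background in the MEHP channel, against 7.74% to 29.2% on the others. The ratios of testis 2 are therefore set largely by a signal near background, and the counts of probes past the adjusted threshold at 10 µM are given below with and without this testis.

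**Figure D1:**
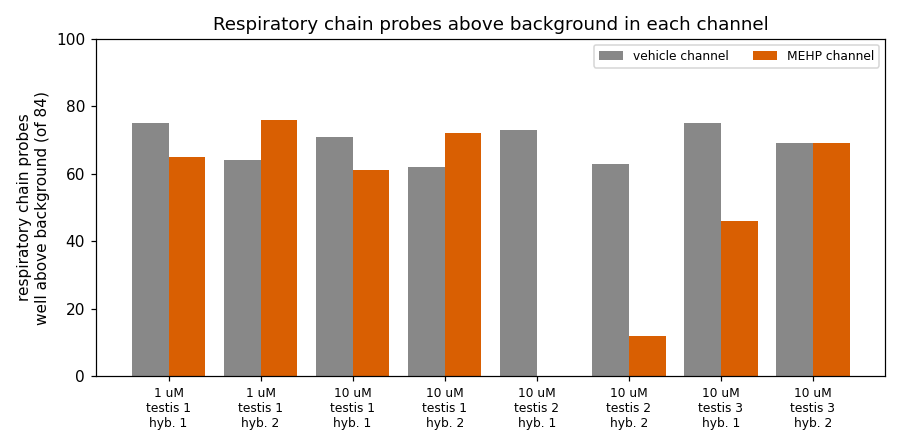
Respiratory chain probes well above background, of 84 (y axis), on each of the 8 arrays (x axis, by dose, testis and hybridization), in the vehicle channel (grey bars) and the MEHP channel (orange bars). The MEHP channel of testis 2 at 10 µM held 0 and 12 such probes, against 46 to 76 on the other arrays.

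At 10 µM the transcripts of the chain lay below the vehicle pool as a group. These were whole testes, so fewer cells of a type and less RNA per cell cannot be told apart. The mean of the 3 testes was below 0 for 69 of the 72 tested probes, against 72.8% of all tested probes. The median of the 72 was −1.09, while that of all 9996 probes measured in every testis was −0.42. In testes 1, 2 and 3 the 72 had medians of −0.58, −1.95 and −0.91. The medians of all probes were 0.09, −1.14 and −0.20, so the respiratory chain lay lower than the array as a whole in each of the 3. A ratio below 0 in all 3 testes was found for 55 of the 72, against 36.4% of all probes, and in testes 1 and 3 for 56, against 38.1%. Of the 72, 18 lay below −1 in both testes 1 and 3, against 6.22% of all probes. Testis 2 gave the lowest value of the 3 for 62 of the 72 probes. With normexp background correction the median of the mean ratios was −0.33 for the members and −0.04 for all probes.

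In limma, with p-values adjusted by Benjamini-Hochberg across every probe tested, 8 of the 72 were lower at 10 µM and 0 were higher. The background was 1.89% of all tested probes lower and 0.38% higher. At an unadjusted p under 0.05, 35 of the 72 were lower and 0 higher, against 15.9% and 1.78% of all probes. Without testis 2, 23 of the 72 were lower, the 8 among them, and 0 were higher, against 9.64% and 7.25%. After centring the arrays on their medians, 6 were lower and 0 higher, against 1.06% and 0.97%. The 8 calls did not hold when testis 1 or testis 3 was left out, when the pool was given a spread like that of the testes, or when the background was corrected by normexp. Those settings called 0 of the members and 0 of all probes, with 29, 20, 4 and 30 members at an unadjusted p under 0.05. The shares of all probes at that limit were not counted in these settings, so these numbers cannot be set against the array. With both channels required above background on the arrays of testes 1 and 3, 46 members were tested and 0 passed. Of all probes tested in that setting 0.0366% were lower and 0.183% higher. With normexp the log2 means of the 8 lay between −0.92 and −0.32, and without background correction between −0.86 and −0.33. The MEHP signal of testis 2 was well above background for 0 of the 8. Testes 1 and 2 lay on 1 slide and testis 3 on the other. With the slide as a block 0 of the members and 0 of all probes passed. There 24 members had an unadjusted p under 0.05, and the share of all probes at that limit was again not counted.

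**Figure D2:**
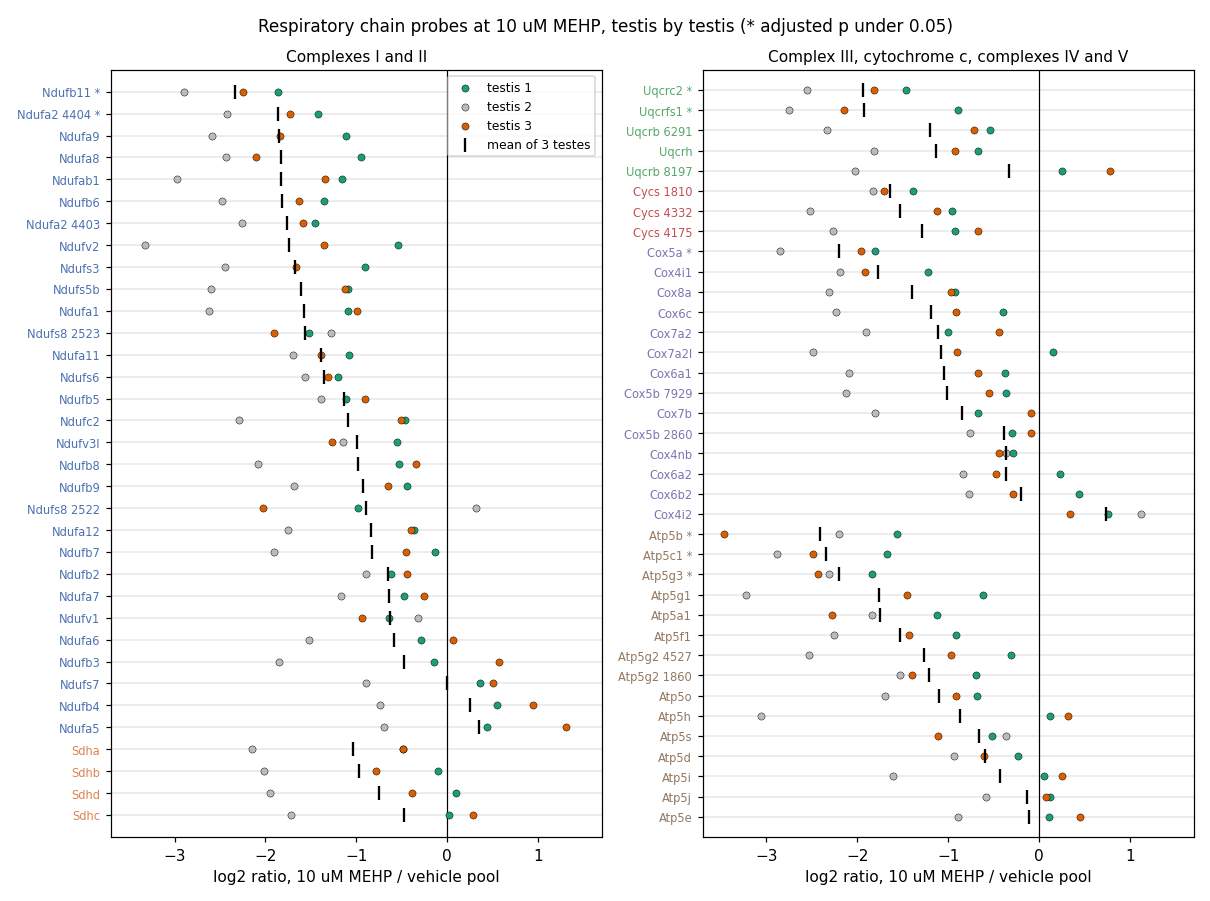
Log2 ratio of 10 µM MEHP over the vehicle pool (x axis) for 71 of the 72 tested respiratory chain probes (y axis, grouped by complex and ordered by mean), with 1 point for each testis and a black bar at the mean of the 3; genes with several probes carry the last digits of the probe name. The 8 probes past the adjusted threshold are starred, 68 of the 71 means lie below 0, and testis 2 (grey) is the lowest point for 61 probes.

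The members were brighter than most probes. The median of their vehicle signals at 10 µM was 3166, against 496 for all tested probes. The vehicle signal enters the ratio, and in testis 2 the 2 correlated with r = −0.52 across all tested probes and −0.34 across the members, whereas in testes 1 and 3 r was −0.23 and −0.11 for all probes and 0.16 and 0.32 for the members. These correlations are across probes, which are not independent replicates. Among the 2629 probes above background in the vehicle on all 6 arrays and in MEHP on the 4 arrays of testes 1 and 3, the median was 0.07 in each of these testes. The 46 members among them had medians of −0.43 in testis 1 and −0.63 in testis 3. The same 2 sets had nearly equal medians in testis 2, at −1.98 for all probes and −1.99 for the members.

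Complex I, the NADH dehydrogenase, had a median of −1.09 over 31 tested probes. Of these 29 had a mean below 0 and 25 were below 0 in all 3 testes. Ndufb11, an accessory subunit in the membrane arm, had ratios of −1.86, −2.90 and −2.25 in testes 1, 2 and 3. Every testis lay well below the pool, and the arrays of testis 3, the pair furthest apart, gave −2.15 and −2.34. Its mean was −2.33 (limma SE 0.56, adjusted p = 0.0142), 5.05 times below the pool on the deposited ratios, but −0.92 with normexp correction and −0.86 without background correction. Ndufa2, another accessory subunit, was read by 2 probes with near values. The first gave −1.42, −2.42 and −1.72, with a mean of −1.86 (limma adjusted p = 0.0498), and the second −1.45, −2.26 and −1.58, with a mean of −1.76 (limma adjusted p = 0.0609). Complex I had 2 probes past the threshold with all 3 testes and 13 of the 23 that passed without testis 2. Of all tested probes 1.89% and 9.64% were lower in these 2 fits.

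Core subunits of complex I, which carry the flavin, the iron-sulphur clusters and the ubiquinone site, had a median near that of the accessory ones. The 7 tested core probes had a median of −1.06 and the 24 accessory probes −1.11. In testis 2 the core median was −1.28 and the accessory one −1.88, and in testis 3 they were −1.36 and −0.95. At the top of the complex were Ndufa5 and Ndufb4, both accessory. Ndufa5 gave 0.44, −0.69 and 1.30, and Ndufb4 gave 0.55, −0.74 and 0.94. Testes 1 and 3 were above the pool and testis 2 below it for both, and neither passed the test.

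Complex II, succinate dehydrogenase, is the only complex of the chain that is also an enzyme of the citric acid cycle, and all of its subunits are nuclear-encoded. Its median was −0.86, with 0 of 4 probes past the test with or without testis 2. The shares of all tested probes that were lower were 1.89% and 9.64%, so 0 of 4 is near them. The flavoprotein Sdha gave −0.48, −2.15 and −0.48. The iron-sulphur subunit Sdhb gave −0.10, −2.01 and −0.79. The membrane anchors stood closer to the pool outside testis 2, with 0.02, −1.71 and 0.28 for Sdhc and 0.10, −1.94 and −0.39 for Sdhd. Without testis 2 the median of the 4 was −0.30, and Sdhc had a mean of 0.15.

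Complex III, which passes electrons from ubiquinol to cytochrome c, had a median of −1.20 over 5 tested probes. Uqcrc2, a core subunit, gave −1.46, −2.55 and −1.82, with a mean of −1.94 (limma SE 0.56, adjusted p = 0.0421). Uqcrfs1, the Rieske iron-sulphur protein, gave −0.89, −2.76 and −2.15, with a mean of −1.93 (limma SE 0.56, adjusted p = 0.0428). Both lay below the pool in every testis, on average 3.84 and 3.81 times on the deposited ratios, whereas their log2 means were −0.66 and −0.62 with normexp. The 2 were the calls of the complex with and without testis 2, where 1.89% and 9.64% of all tested probes were lower. Uqcrh, the hinge protein, gave −0.67, −1.82 and −0.92 and did not pass. Uqcrb, which contributes to ubiquinone binding, was read differently by its 2 tested probes. The first gave 0.25, −2.03 and 0.78, which average −0.34, while the other averaged −1.20.

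Cytochrome c, the soluble carrier between complexes III and IV, also triggers apoptosis when it leaves the mitochondrion. Its 3 Cycs probes all had means below 0 and none passed the adjusted threshold with all 3 testes. The lowest gave −1.39, −1.82 and −1.71, with a mean of −1.64 (limma adjusted p = 0.084). The next gave −0.95, −2.52 and −1.12, with a mean of −1.53 (limma adjusted p = 0.112). The highest gave −0.92, −2.27 and −0.68, with a mean of −1.29 (limma adjusted p = 0.193). All 9 ratios were below the pool. Unadjusted limma p-values were 0.00375, 0.00703 and 0.0228, and without testis 2 the first probe passed with a mean of −1.55 (limma adjusted p = 0.017).

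Complex IV, cytochrome c oxidase, had a median of −1.03 over 14 tested probes. Cox5a, a subunit of the matrix side, gave −1.80, −2.85 and −1.96, with a mean of −2.21 (limma SE 0.56, adjusted p = 0.0217), and was the single probe of the complex past the threshold, which 2 passed without testis 2. With normexp its mean was −0.72. Of all tested probes 1.89% were lower with all 3 testes and 9.64% without testis 2. Cox4i1, the widespread form of subunit 4, gave −1.22, −2.19 and −1.91, with a mean of −1.77 (limma adjusted p = 0.0602). Without testis 2 it passed at a mean of −1.56 (limma adjusted p = 0.018).

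Cox4i2, the form of subunit 4 known from lung and from cells at low oxygen, ran the other way. It gave 0.76, 1.13 and 0.34, the highest mean of all 72 members at 0.74, and did not pass (limma adjusted p = 0.503). All 6 arrays gave a Cox4i2 ratio above 0, and its MEHP signal was above background on 3 of the 6. The difference between the log2 ratios of Cox4i1 and Cox4i2 was −1.98, −3.31 and −2.25, with a mean of −2.51 ± 0.71 (SD, n = 3), on the deposited ratios. With normexp the mean of Cox4i1 was −0.37 and that of Cox4i2 0.15. On the deposited ratios the sign of the difference was the same in 3 of 3 testes, for which an exact two-sided sign-flip test gives p = 0.25, the smallest that 3 testes allow.

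The other tissue forms gave less. Cox6a1, the widespread form of subunit 6a, gave −0.38, −2.09 and −0.67, and Cox6a2, the heart and muscle form, gave 0.23, −0.84 and −0.47 at a signal above background on 2 of 6 arrays in each channel. Their difference of −0.69 ± 0.53 (SD, n = 3) was close to the spread between testes. Cox7a2 gave −1.0, −1.90 and −0.44 and Cox8a gave −0.92, −2.32 and −0.97, and neither passed. The 3 probes of Cox8h, now Cox8b, were not above background on the vehicle channel of any of the 6 arrays. Cox6b2, the testis form of subunit 6b, gave 0.44, −0.77 and −0.29.

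Complex V, ATP synthase, had a median of −1.21 and 3 of 15 probes past the threshold, or 5 of 15 without testis 2, where 1.89% and 9.64% of all tested probes were lower. Its catalytic head held the lowest mean of the chain on the deposited ratios. Atp5b, now Atp5f1b, the beta subunit that carries the catalytic sites, gave −1.56, −2.20 and −3.46. Testis 3 was the lowest here, where most members had testis 2 lowest. Its mean was −2.41 (limma SE 0.56, adjusted p = 0.0126), 5.31 times below the pool on the deposited ratios, but −0.71 with normexp and −0.73 without background correction. Atp5c1, now Atp5f1c, the gamma subunit that turns inside the head, gave −1.67, −2.89 and −2.48, with a mean of −2.35 (limma adjusted p = 0.0142), or −0.79 with normexp. Atp5a1, now Atp5f1a, the alpha subunit, gave −1.13, −1.84 and −2.27 and did not pass (mean −1.75, limma adjusted p = 0.0647).

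Atp5g1, Atp5g2 and Atp5g3 encode the same mature c subunit, which forms the rotor ring in the membrane. Atp5g3, now Atp5mc3, gave −1.84, −2.32 and −2.44, the narrowest spread of the 8 called probes (SD 0.31, n = 3), with a mean of −2.20 (limma adjusted p = 0.0217). Its MEHP signal was above background on 2 of the 6 arrays. With normexp the probe averaged −0.65. Atp5g1 gave −0.62, −3.22 and −1.46, with a mean of −1.76 (limma adjusted p = 0.065). The probes of Atp5g2 had means of −1.21 and −1.26 and did not pass. In testes 1 and 3 Atp5g3 was the lowest of the 3 genes, while in testis 2 it was above Atp5g1 and 1 of the Atp5g2 probes. Its difference from the probes of Atp5g2 was −0.99 ± 0.19 and −0.93 ± 0.99 (SD, n = 3). Near the pool stood Atp5e, the epsilon subunit, with 0.11, −0.89 and 0.45, and Atp5j, of the stalk, with 0.12, −0.58 and 0.07. The 5 head subunits had a median of −1.75 and the 9 stalk and membrane probes −1.21.

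**Figure D3:**
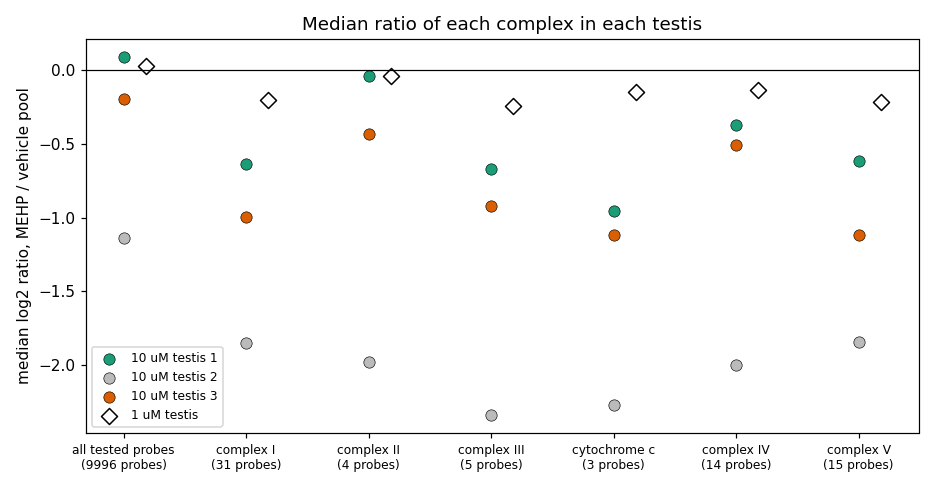
Median log2 ratio of MEHP over the vehicle pool (y axis) over all tested probes, the tested probes of each complex and the 3 Cycs probes (x axis), in each testis at 10 µM (circles) and in the testis at 1 µM (diamonds, set to the right), with probe numbers as tested at 10 µM. In testes 1 and 3 the medians of complexes I, III and V and of cytochrome c lie between −1.12 and −0.62, below those of all probes at 0.09 and −0.20, and complex II lies nearest to them.

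Set side by side, the medians without testis 2 were −0.95 for complex I, −0.30 for complex II, −0.80 for complex III, −1.04 for cytochrome c, −0.42 for complex IV and −0.82 for complex V. The median of all probes on the same 2 testes was −0.04. With normexp and all 3 testes the medians were −0.32 for complex I, −0.11 for complex II, −0.56 for complex III, −0.43 for cytochrome c, −0.25 for complex IV and −0.46 for complex V, again with −0.04 for all probes. Differences between complexes were not tested, since their members were chosen by name and share the same 3 testes. In testis 1 the order ran from cytochrome c at −0.95 to complex II at −0.04. In testis 3 cytochrome c and complex V were lowest, at −1.12 and −1.11 on the log2 scale, and complex II was highest at −0.43.

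Genes that build, feed and regulate the chain were read from lists of related genes. Among carriers, the adenine nucleotide translocators, which exchange ADP and ATP across the inner membrane, had probes called lower at 10 µM on the deposited ratios. A probe of Slc25a5 gave −1.59, −2.65 and −2.46 (mean −2.23, limma adjusted p = 0.0192) and a probe of Slc25a4 gave −1.28, −2.44 and −2.61 (mean −2.11, limma adjusted p = 0.0307). A second probe of each passed as well, whereas the remaining probe of each did not (limma adjusted p = 0.0747 for Slc25a5 and 0.14 for Slc25a4). These 4 were the lower calls among 22 tested probes of carriers, porins and other dehydrogenases, with 0 higher, against 1.89% and 0.38% of all tested probes. Their MEHP signal was above background on 3 or 4 of the 6 arrays. The settings that called 0 of all probes, such as normexp correction or leaving out testis 1 or testis 3, kept 0 of these calls. Without testis 2 the list had 7 lower calls and 0 higher, against 9.64% and 7.25%. At the other end of this list were Etfb, of the electron transfer flavoprotein, with 0.62, −1.03 and 1.18, and a probe of the porin Vdac1 with a mean of −0.10. Of 9 tested probes of assembly factors 0 passed, where 1.89% of all tested probes were lower and 0.38% higher, so 0 in a list this small is near that share. Their lowest was Tmem126b, of complex I assembly, with −1.45, −2.26 and −1.55 (mean −1.75, limma adjusted p = 0.0627), then Lrpprc, which stabilizes mitochondrial messenger RNAs, with a mean of −1.46. Both passed without testis 2, where 9.64% of all tested probes were lower. The highest were Ecsit, also of complex I assembly, at −0.18 and a probe of Cox18, of complex IV assembly, at −0.03.

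Regulators gave 0 calls of 14 tested probes with all 3 testes, near the share of all tested probes, of which 1.89% were lower and 0.38% higher. A probe of Hif1a, the oxygen-regulated factor, gave −0.80, −1.80 and −2.25, and Tfam, which packages mitochondrial DNA, gave −0.67, −3.02 and −1.15. Without testis 2 that Hif1a probe was lower, and Polrmt, the mitochondrial RNA polymerase, was higher with a mean of 1.17 (limma adjusted p = 0.0377). In that fit 9.64% of all tested probes were lower and 7.25% higher. The second probe of Hif1a did not pass at −0.56. A probe of Yy1 had the highest mean of this list, at 0.35, with 2 other Yy1 probes at −0.81 and −1.14. Of the genes around cytochrome c in apoptosis 4 probes were tested and 0 passed, again near the share of all tested probes. Their means ran from −1.04 for Diablo to 0.51 for Bak1.

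Promoters of the members were searched for 3 motifs of factors known to act on respiratory chain genes. RefSeq (assembly GRCr8) held the promoter, 250 bases before to 50 bases after the start, for 63 of the 72 current gene names. The motif of nuclear respiratory factor 1, the letters GCGCANGCG on either strand, was found in 17 of the 63 (27.0%) and in 6.26% of all 27457 promoters. The ETS motif CCGGAAG, read by GABP, was found in 19 (30.2%) and in 9.22% of all, and the YY1 motif AAGATGG in 15 (23.8%) and in 7.3% of all. Of the promoters of the 8 called genes 2 held each of the motifs, against 15, 17 and 13 of the 55 other members. Cox4i1 and its neighbour Cox4nb have overlapping promoters on opposite strands, so the same 2 ETS matches count for both. A match describes the letters alone, and the comparison set holds all promoters, whether or not their genes were detected. Whether these factors have a part in the ratios was not tested. The promoters of 3 called genes with matches and of Cox4i1 are given with the matched motifs in capitals, which do not overlap: ETS and YY1 in Uqcrc2, nuclear respiratory factor 1 in Atp5c1 and Atp5g3, and ETS in Cox4i1.
Uqcrc2 promoter, chr1:184598990-184599289, plus strand: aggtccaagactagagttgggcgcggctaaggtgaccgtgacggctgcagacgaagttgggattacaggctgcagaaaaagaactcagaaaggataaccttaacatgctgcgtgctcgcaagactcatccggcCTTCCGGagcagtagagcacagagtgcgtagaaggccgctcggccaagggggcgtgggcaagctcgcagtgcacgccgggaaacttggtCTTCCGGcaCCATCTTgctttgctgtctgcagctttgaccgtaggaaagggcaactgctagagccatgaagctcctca
Atp5c1 promoter, chr17:73333435-73333734, plus strand: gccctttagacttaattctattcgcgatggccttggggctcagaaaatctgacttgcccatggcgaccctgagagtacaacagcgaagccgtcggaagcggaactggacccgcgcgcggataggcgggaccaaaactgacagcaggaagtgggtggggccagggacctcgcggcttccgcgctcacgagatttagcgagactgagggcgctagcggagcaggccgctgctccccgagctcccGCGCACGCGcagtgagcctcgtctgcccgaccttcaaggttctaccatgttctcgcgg
Atp5g3 promoter, chr3:79220615-79220914, minus strand: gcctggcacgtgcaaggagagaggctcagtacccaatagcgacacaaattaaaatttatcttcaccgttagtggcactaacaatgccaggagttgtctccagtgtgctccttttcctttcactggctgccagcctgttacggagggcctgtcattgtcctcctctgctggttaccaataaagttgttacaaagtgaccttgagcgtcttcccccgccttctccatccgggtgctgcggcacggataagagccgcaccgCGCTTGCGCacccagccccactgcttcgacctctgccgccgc
Cox4i1 promoter, chr19:65630133-65630432, plus strand: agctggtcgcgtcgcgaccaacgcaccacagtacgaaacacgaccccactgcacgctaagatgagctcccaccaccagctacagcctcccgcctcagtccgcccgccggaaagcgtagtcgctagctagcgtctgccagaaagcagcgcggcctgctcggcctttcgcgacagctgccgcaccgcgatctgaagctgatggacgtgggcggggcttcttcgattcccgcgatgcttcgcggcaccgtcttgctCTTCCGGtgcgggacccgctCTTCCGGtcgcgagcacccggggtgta

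At 1 µM a single testis was measured, so no test was possible, and 75 of the 84 probes could be read. A probe was counted when it differed from the pool by at least 1.5-fold in the same direction on both arrays. By this limit 5 of the 75 were lower and 0 higher, against 2.96% and 4.05% of all 13172 probes read. On the 2 arrays Atp5b gave −1.03 and −1.21, Atp5g3 gave −0.999 and −0.899, and Atp5a1 gave −0.73 and −1.13. Ndufb11 gave −0.91 and −0.83. Of the 5, 3 were subunits of complex V, and Atp5b, Atp5g3 and Ndufb11 were also among the 8 called at 10 µM. The count fell to 0 with normexp correction and to 1 without background correction, where the shares of all probes were not counted. A ratio below 0 on both arrays was found for 43 of the 75 and above 0 for 10, against 22.9% and 25.6% of all probes. The median of the members was −0.17. Cytochrome c stayed near the pool, with −0.13 and −0.18 for the probe that was lowest at 10 µM.

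The testes at 10 µM lay below that at 1 µM for 69 of the 71 members measured at both doses, against 79.1% of all probes. The median difference of the log2 ratios was −0.90, against −0.53 for all probes. Among probes above background in the vehicle on all 6 arrays and in MEHP on the 4 arrays of testes 1 and 3, the gap was smaller. There the median difference was −0.86 for members and −0.66 for all. The values at 10 µM include testis 2, whose MEHP signal was near background. In limma, which lets the lone testis vary like the others, 0 of the 71 and 0 of all 9908 probes passed the adjusted threshold, and 0 of the 71 had an unadjusted p under 0.05 with 10 µM lower, against 0.131%. Testis 3 at 10 µM shared its slide with the testis at 1 µM, and within this slide the median difference was −0.72, with 58 of the 71 below 0. The same difference was not computed for all probes. The medians of all tested probes were −0.20 in testis 3 and 0.03 in the testis at 1 µM. Both doses were set against the same pool, so the values share its error. The 3 Cycs probes had means of −1.64 to −1.29 at 10 µM and −0.16 to −0.12 at 1 µM.

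**Figure D4:**
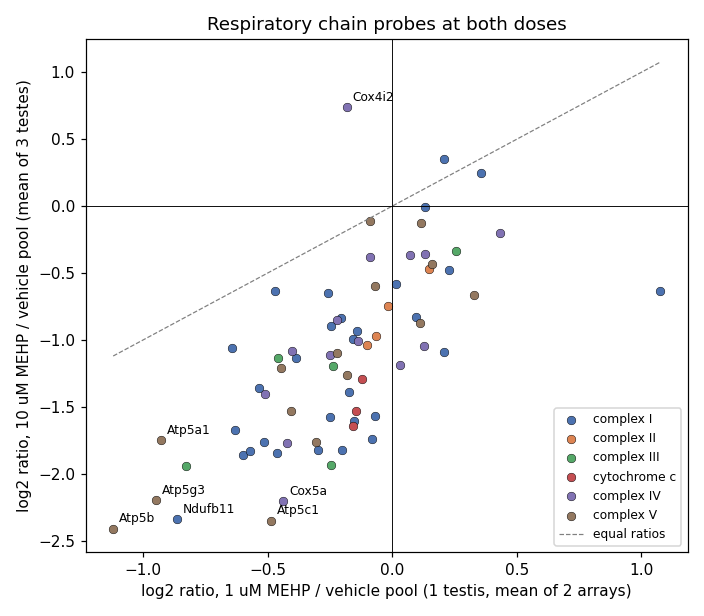
Log2 ratio at 10 µM MEHP (y axis, mean of 3 testes) against that at 1 µM (x axis, mean of the 2 arrays of 1 testis) for the 71 respiratory chain probes measured at both doses, coloured by complex; both ratios use the same vehicle pool. Of the 71, 69 lie below the dashed line of equal ratios, Cox4i2 stands above it, and Atp5b is lowest on both axes.

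Markers of the cell types in the explants were read beside these results. Of 8 Leydig cell markers 6 were above background in the vehicle on at least 1 array, and Lhcgr and Nr5a1 were not. The summed vehicle signal of the 8 ranged from 1923 to 9637 over the arrays and their summed MEHP signal at 10 µM from 997 to 3073. The median log2 ratios of the 6 were −0.30, −1.46 and −1.72 in the 3 testes, and those of all 8 were −0.13, −1.20 and −1.09. Detection of markers was judged by the vehicle channel alone, which favours ratios below 0 among the detected. Of 9 Sertoli cell markers 7 were detected, all but Fshr and Cldn11. The sums of the 9 were 3201 to 18480 and 1581 to 10450, and the median log2 ratios of the 7 were −0.26, −0.79 and −1.23. Over all 9 the medians were −0.19, −0.585 and −0.82. Of 7 germ cell markers only Ddx4 and Mael were detected, with sums of 442 to 2569 and 308 to 1732 over the 7 and median log2 ratios of −0.59, −0.94 and −1.02 over these genes. Over all 7 the medians were −0.40, −0.31 and −0.78. Of other cell types, 3 of 4 peritubular, 1 of 5 endothelial, 2 of 4 macrophage, 2 of 4 red blood cell and 1 of 5 skeletal muscle markers were detected. Over these detected markers most median log2 ratios in testes 1 and 3 lay above the pool. They were 0.51 and −0.194 for peritubular, 0.955 and 0.806 for endothelial and −0.127 and 0.495 for macrophage markers. Red blood cell markers were at 0.937 and 0.288, and the skeletal muscle marker at 0.538 and 0.397. In testis 2 all of these medians were below the pool. Over all markers on the array, detected or not, the medians of these other cell types in testes 1 and 3 lay between −0.26 and 0.25. Whether cell composition has a part in the ratios of the respiratory chain was not tested.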

How the data were processed

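Signals of 2 dyes were extracted by the authors with Agilent Feature Extraction 9.1, and the log10 ratio of red over green that they deposited is background-subtracted and dye-normalized within the array. The deposited intensity values are mean, background and processed signals of each dye, and the deposited flags mark outliers and spots well above background. The authors' gene lists, which hold fold changes and p-values per dose, were not used. Probe sequences are not given in the sources used here.

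Ratios were converted to log2 and turned to MEHP over vehicle. Outlier spots were left out, spots of a probe were averaged, and the 2 arrays of a testis were averaged as 1 replicate. A ratio is 0 where neither dye gave signal. For 10 µM, limma 3.58.1 (lmFit, eBayes) in R 4.3.3 tested the mean of the 3 testes against 0, at an adjusted p of 0.05, with input read by the package data.table (version 1.17.8). Figures were drawn with Python 3.11.15, pandas 2.3.3 and matplotlib 3.10.9. The arrays lay on 2 slides, with testes 1 and 2 at 10 µM on the first and testis 3 and the 1 µM testis on the second, each scanned apart. Of the 84 probes 51 were matched to RefSeq by accession and the rest by symbol, and names are those of the array unless a current one is given.

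The members, gene lists and tests were chosen with earlier results of these data known. Named probes were all of Cycs and Sdha to Sdhd. In each other complex they were those past the threshold (at most 6), the 2 lowest and the 2 highest. The isoform genes, the largest changes at 1 µM past the limit in both hybridizations and the 2 extremes of each list at either end were also named. Further probes named beside them, such as a second probe of a gene, were chosen after their values were seen. The values of 1 gene are not reported here. The fit was tested on simulated data of 9996 probes with the spread of the 3 testes, in which 50 of 50 probes with a log2 change of −3, 23 of 50 with −2 and 5 of 50 with −1 were recovered. There 3 unchanged probes were called. The simulated errors were independent between probes, without the shift shared by the probes of a testis, the dim channel of testis 2 or the error of the pool. The number of arrays limits the precision, and no counting interval applies.

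Alternatives were other background corrections, centring, filters on dim probes, outlier spots included, a single hybridization per testis, leaving out each testis, a random block for testis with a dye coefficient, a spread for the pool, an intensity trend, 1 probe a gene and another fold limit. After the data were seen, a slide block, a comparison within a slide and medians over subunits alone were added.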

Additional observations from a re-analysis of the deposited data

Results flagged for a closer look

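Among the members, 3 had opposite signs at the 2 doses, with all 3 testes at 10 µM on 1 side of the pool and both arrays of the testis at 1 µM on the other. The difference in sign itself was not tested, with a single testis at 1 µM. How many of all probes met the same rule was not counted, so the 3 cannot be called particular to the chain. The median of all tested probes was −0.42 at 10 µM and 0.03 at 1 µM. Cox4i2 gave 0.76, 1.13 and 0.34 at 10 µM and −0.21 and −0.16 at 1 µM, a difference of 0.92. Cox6a1 gave −0.38, −2.09 and −0.67 at 10 µM and 0.15 and 0.11 at 1 µM, a difference of −1.17. Ndufc2, an accessory subunit of complex I, gave −0.47, −2.29 and −0.51 at 10 µM and 0.11 and 0.31 at 1 µM, a difference of −1.296. In the limma fit of the difference between the doses none of the 3 passed, with unadjusted limma p-values of 0.412, 0.298 and 0.251.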

How the results depend on the processing

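The count of 8 members lower at 10 µM was 0 with normexp correction, without background correction, without a filter on dim probes, with both channels required above background, with the first hybridization alone, with a spread for the pool and with the slide as a block (chosen after seeing the data). At an unadjusted p under 0.05 these settings called 30, 30, 27, 9, 31, 4 and 24 members, and all probes were not counted at that limit. Of all probes 0 passed the adjusted threshold in them, save with both channels required. There 0.0366% were lower and 0.183% higher. The count was 1 with an intensity trend (Atp5g3), 3 with a random block and dye coefficient, 5 with the repeat hybridization alone, 5 with 1 probe a gene and 6 with centred arrays. With the trend 0.99% of all probes were lower and 0.34% higher, so 1 of 72 is near that share. The shares lower and higher were 0.33% and 0.07% with the random block and 1.14% and 1% with the repeat alone. With 1 probe a gene they were 0.527% and 0.179%, and with centred arrays 1.06% and 0.97%. The count of members ranged from 0 to 23 when 1 testis was left out, at 0 without testis 1 or testis 3 and 23 without testis 2. Without testis 2, 9.64% of all probes were lower and 7.25% higher. No setting called a member higher at 10 µM. Centring gave a split of all calls of 106 lower and 97 higher, against 189 and 38.

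With normexp and without background correction the median of all tested probes moved from −0.42 to −0.04 and −0.02. The medians of the members then were −0.33 and −0.33, of complex I −0.32 and −0.32, of complex II −0.11 and −0.12, of complex III −0.56 and −0.54, of complex IV −0.25 and −0.22, of complex V −0.46 and −0.46, of cytochrome c −0.43 and −0.41, and of the difference between the doses −0.17 and −0.0797. The 5 members lower at 1 µM became 0 and 1 in these settings, 3 with centred arrays and 1 at a 2-fold limit. On the first array alone 10 were lower and 0 higher, and on the repeat alone 14 were lower and 6 higher. The medians of all probes tested at 10 µM were −0.12 and 0.18 on these 2 arrays. Shares of all probes past the limit at 1 µM were not counted in these settings, so the counts cannot be set against the array. No member passed the test of the difference between doses under any setting run. The cause of these changes was not tested.

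Among the named probes, 8 near 0 changed sign. In the order normexp, no background correction, centred arrays and repeat hybridization alone, a Uqcrb probe took 0.20, 0.23, 0.12 and 0.19, Cox6a2 0.036, 0.0116, 0.094 and 0.12, Atp5e 0.57, 0.52, 0.34 and 0.52, and Atp5j 0.14, 0.10, 0.32 and 0.0776. Cox6b2 took 0.25 when centred and 0.45 on the repeat. With 1 testis left out, the mean of Ndufa5 ranged from −0.13 to 0.871, of Ndufb4 from −0.0945 to 0.746, of Sdhc from −0.847 to 0.15, of that Uqcrb probe from −0.891 to 0.51, of Cox6b2 from −0.526 to 0.0769, of Atp5e from −0.393 to 0.28 and of Atp5j from −0.25 to 0.0961. The sign turned without testis 3 for Ndufa5 and Ndufb4 and without testis 2 for the other 5. On the first hybridization alone Ndufa5 and Ndufb4 took −0.25 and −0.18, and with the slide as a block Atp5e took 0.0288. No paired analysis was possible because the groups share no replicate numbers from one animal, and the doses hold 1 and 3 testes.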
